A study of Homo sapiens with 4 samples.

Results

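The wide H2AK119ub domains of wild-type H1 cells are the peaks of 20 kb or more on chromosomes 1 to 22 in the wild-type peak list. They were chosen by their width in that list, so their widths are a description and support nothing. There were 922 of them among 32451 wild-type peaks on these chromosomes. They made up 2.84% of the peaks and 15.6% of the peak length, 30.3 of 193.5 Mb. H1 is an established human embryonic stem cell line. The series compared untreated wild-type H1 cells with H1 cells in which YTHDF1 was knocked down by shRNA (short hairpin RNA), both grown in mTeSR1 medium, with 1 H2AK119ub ChIP-seq library and 1 input library per group. The sources used here do not say whether the knockdown cells were 1 clone or a pool. The lists hold no RNA, so neither the knockdown nor the cell type was checked, and the depth of the libraries is unknown. With 1 library per group there was no replicate spread, so no difference below was tested. Intervals are exact Clopper-Pearson 95% intervals for shares and order-statistic 95% intervals for medians. They cover counting over domains only.

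Histone H2A is monoubiquitinated on a lysine of its C-terminal tail by Polycomb repressive complex 1 (PRC1), whose RING1 or RNF2 subunit carries the ubiquitin ligase activity. In pluripotent cells the mark lies over CpG-rich promoters of silent developmental genes, where PRC1 often acts together with Polycomb repressive complex 2 (PRC2), and over some gene clusters it spreads into long domains. YTHDF1 is a cytoplasmic protein that reads N6-methyladenosine (m6A) in messenger RNA. The comparison asked what became of the long wild-type domains in the list of knockdown peaks.

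Examples of both extremes are shown by sequence before the values. The first 3 sequences are the 250 bases upstream of a gene start in the widest domains that hold a listed start and that a single knockdown peak covered to 99% or more. The start shown is the one nearest the middle of its domain. They belong to HOXA9 and HOXD8, homeobox genes of the body axis, and WNT10A, which encodes a secreted WNT ligand. The other 3 come from the domains with the lowest covered share that hold a listed start. They belong to PAF1, a subunit of a complex that travels with RNA polymerase II, to DRC11L, and to ZNF414, a zinc finger gene. Each is written 5′ to 3′ on the strand of the gene, taken from RefSeq promoter sequences of GRCh38.p14, with every CG dinucleotide in capitals.
HOXA9: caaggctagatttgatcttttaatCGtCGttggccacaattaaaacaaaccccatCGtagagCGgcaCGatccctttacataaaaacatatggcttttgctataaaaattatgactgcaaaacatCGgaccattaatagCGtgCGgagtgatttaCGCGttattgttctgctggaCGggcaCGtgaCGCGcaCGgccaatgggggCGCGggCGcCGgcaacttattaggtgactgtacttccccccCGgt
HOXD8: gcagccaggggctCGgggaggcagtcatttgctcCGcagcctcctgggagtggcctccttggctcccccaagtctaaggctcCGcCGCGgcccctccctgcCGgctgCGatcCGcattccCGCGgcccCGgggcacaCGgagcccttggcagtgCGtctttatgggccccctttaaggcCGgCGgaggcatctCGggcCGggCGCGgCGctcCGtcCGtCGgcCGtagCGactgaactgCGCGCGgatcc
WNT10A: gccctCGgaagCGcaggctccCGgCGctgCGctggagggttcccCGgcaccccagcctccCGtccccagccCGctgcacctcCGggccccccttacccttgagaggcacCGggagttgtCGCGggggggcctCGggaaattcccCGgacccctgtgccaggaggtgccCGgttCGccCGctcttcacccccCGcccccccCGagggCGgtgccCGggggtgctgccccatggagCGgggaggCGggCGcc
PAF1: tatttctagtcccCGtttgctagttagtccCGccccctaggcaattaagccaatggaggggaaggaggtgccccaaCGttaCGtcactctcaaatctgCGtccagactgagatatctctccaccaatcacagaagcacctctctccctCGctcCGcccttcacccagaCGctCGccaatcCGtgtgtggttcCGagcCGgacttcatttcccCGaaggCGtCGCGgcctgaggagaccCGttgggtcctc
DRC11L: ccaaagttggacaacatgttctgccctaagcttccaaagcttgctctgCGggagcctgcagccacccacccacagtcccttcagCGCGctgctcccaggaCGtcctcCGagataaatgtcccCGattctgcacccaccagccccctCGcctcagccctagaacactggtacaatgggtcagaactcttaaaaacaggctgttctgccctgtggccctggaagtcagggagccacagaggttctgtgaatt
ZNF414: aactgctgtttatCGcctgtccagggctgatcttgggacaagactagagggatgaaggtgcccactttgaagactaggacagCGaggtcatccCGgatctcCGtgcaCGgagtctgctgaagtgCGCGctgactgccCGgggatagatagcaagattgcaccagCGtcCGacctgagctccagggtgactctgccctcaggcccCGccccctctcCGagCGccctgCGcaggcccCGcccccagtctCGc

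The HOXA9 stretch (chr7:27165538-27165787, minus strand) held 20 CG dinucleotides, the HOXD8 stretch (chr2:176129455-176129704, plus strand) 28 and the WNT10A stretch (chr2:218880602-218880851, plus strand) 24. The PAF1 stretch (chr19:39391107-39391356, minus strand) held 17, the DRC11L stretch (chr7:151205497-151205746, minus strand) 7 and the ZNF414 stretch (chr19:8514168-8514417, minus strand) 16. The median was 21 over the 990 listed starts in wide domains and 17 over all 15101 listed protein-coding starts. The starts of HOXA9, HOXD8, WNT10A and DRC11L lay inside a knockdown peak, and those of PAF1 and ZNF414 did not.

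The wide domains were largely covered by knockdown peaks, and most met more than 1 of them. Knockdown peaks covered 86.5% of their length. The median domain was covered to 88.6% (interval 87.7 to 89.6%), with a lower quartile of 79.0%. At least 90% of the domain was covered in 416 of 922 cases (45.1%, interval 41.9 to 48.4%). Over all wild-type peaks this share was 21.3%. Under 50% was covered in 27 domains (2.93%), against 41.3% of all wild-type peaks. No knockdown peak touched 2 of the domains (0.217%), against 28.5% of all wild-type peaks. In the class nearest in width, wild-type peaks of 10 to under 20 kb, 15.1% were covered to under 50% and 1.54% were untouched. Few untouched peaks were therefore not particular to the wide domains.

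Several knockdown peaks met 620 of the domains (67.2%, interval 64.1 to 70.3%), against 10.6% of all wild-type peaks. A longer peak has room for more pieces, so this contrast depends in part on the choice by width. The median width was 27.4 kb for the domains and 4.4 kb for all wild-type peaks. A single knockdown peak met 300 domains (32.5%), against 60.9% of all wild-type peaks. In 67 domains (7.27%) that single peak covered 99% or more, against 13.3% of all wild-type peaks. The number of pieces ran from 0 to 13: 256 domains met 2 knockdown peaks, 204 met 3, 112 met 4 and 48 met 5 or more. The longest piece inside a domain made up a median of 66.9% of it. It made up 90% or more in 229 domains and under 50% in 276. A knockdown peak that was itself 20 kb or more touched 499 domains (54.1%).

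Most breaks were short. The domains held 1231 gaps between knockdown peaks, with a median of 1 kb and quartiles of 0.8 and 2 kb. The shortest possible gap is 0.8 kb, the smallest distance between neighbouring peaks in either list. Gaps of 1 kb or less made up 55.7% and gaps over 3 kb 13.6%. When knockdown peaks up to 3 kb apart were joined, 16.8% of the domains met several peaks, in place of 67.2%. With the upper 50% of knockdown peaks by score, 7.92% of the domains were covered to under 50%, in place of 2.93%.

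Both measures went with the width of the wild-type peak. The share of peaks covered to at least 90% was 24.7% (interval 23.1 to 26.4%) for peaks of 10 to under 20 kb, 36.9% for those of 20 to under 30 kb, 52.1% for those of 30 to under 50 kb and 74.4% for the 86 domains of 50 kb or more. The share met by several knockdown peaks was 44.8%, 61.9%, 72.6% and 83.7% in the same classes. At the threshold itself, the 39 domains of 20 to 20.2 kb had a median covered share of 82.2%, and the 16 peaks of 19.8 kb just under it had 85.9%.

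The domains were chosen for their width in the wild type, so the same measures were taken for the 599 knockdown peaks of 20 kb or more against the wild-type list. Wild-type peaks covered a median of 98.1% of them (interval 97.5 to 98.8%). At least 90% was covered in 511 of the 599 (85.3%, interval 82.2 to 88.0%), and several wild-type peaks met 196 (32.7%, interval 29.0 to 36.6%). Over all knockdown peaks these shares were 38.3 and 6.36%, against 21.3 and 10.6% over all wild-type peaks, so the whole lists differed in the same direction. Of these knockdown peaks, 516 (86.1%) touched a wide wild-type domain. The wild-type list covered more of the genome than the knockdown list, 193.5 against 167.1 Mb, and what part this has in the asymmetry was not tested. With wild-type peaks up to 3 kb apart joined, 2.17% of the wide knockdown peaks met several wild-type peaks.

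**Figure D1:**
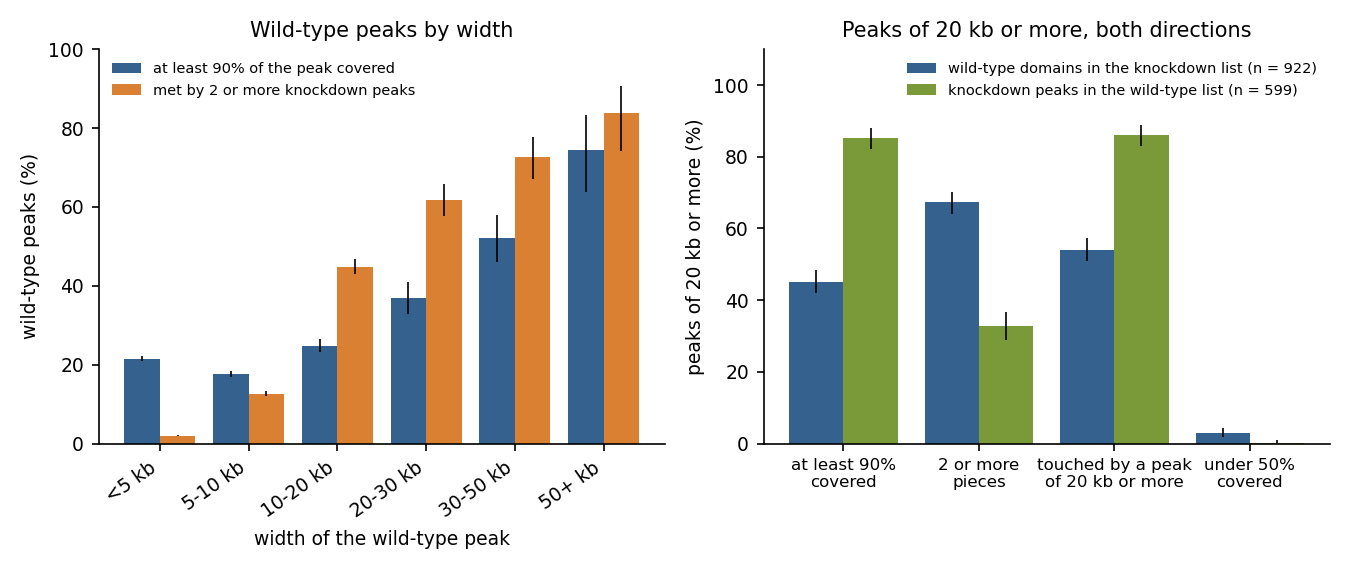
Left, percentage of wild-type peaks in 6 width classes of which at least 90% was covered by knockdown peaks (blue) or that met 2 or more knockdown peaks (orange). Right, 4 measures in percent for the 922 wide wild-type domains in the knockdown list (blue) and the 599 knockdown peaks of 20 kb or more in the wild-type list (green); bars in black are exact 95% intervals. Both shares on the left are highest in the class of 50 kb or more, and on the right 45.1% of the wild-type domains and 85.3% of the knockdown peaks were covered to at least 90%.

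Within the domains, the uncovered 4.08 Mb lay about equally in gaps and at the ends. Gaps between knockdown peaks held 51.8% of it, the ends of the domains 47.2%, and the domains without any knockdown peak 1.08%. Of 1840 domain ends, the outermost knockdown peak stopped inside the domain at 900 (48.9%), with a median retreat of 1.6 kb. It reached beyond the wild-type end at 825 (44.8%), with a median of 2 kb, and stopped at the same position at 115. The reach beyond summed to 3.34 Mb and the retreat to 1.93 Mb. Of the reach, 64.4% ran into other wild-type peaks, so it joined sequence that was marked in both lists. Averaged over the domains, the outermost twentieths of the width were covered to 60.2 and 61.2%, and the 2 central ones to 90.3 and 91.2%. In the 10 to under 20 kb class the ends had 47.8 and 49.4% and the centre 83.6%.

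The widest domains varied in how they were divided and in how much of them was covered, from 78.7 to 99.8% among the 10 widest. The widest of all, of 197.6 kb on chromosome 11 (63964201 to 64161800), touched COX8A, a respiratory chain subunit gene, OTUB1, a deubiquitinase gene, MACROD1 and FLRT1. It met 6 pieces, of which the longest measured 156.6 kb, and was covered to 95.4%. The HOXA cluster (chr7:27086001-27259200, 173 kb), which also holds the homeobox gene EVX1, and the HOXD cluster (chr2:176065601-176196000, 130 kb), with EVX2, each met 1 knockdown peak, which covered 99.1 and 99.8%. The HOXC cluster (chr12:53921001-54064800) met 1 knockdown peak that covered 98.6%. The HOXB cluster (chr17:48516601-48653600) met pieces of 1, 17.8 and 114.8 kb, with no gap over 0.8 kb. The domain of 132 kb over NFIX, a nuclear factor I gene, and LYL1, a blood transcription factor gene (chr19:12974201-13105800), met pieces of 5.6, 62.8 and 61.4 kb that covered 98.6%. These 5 domains were covered to between 97.5 and 99.8%, whether or not they were divided.

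Other domains met between 2 and 13 pieces. A gene-dense domain of 138 kb on chromosome 16 (619401 to 757600) touched 16 protein-coding genes, among them STUB1, a ubiquitin ligase gene, and RHOT2, a mitochondrial GTPase gene. It met 2 knockdown peaks that covered 96.2%. The domain over TCF20, a transcriptional coregulator gene, on chromosome 22 (42264001 to 42392600) met 8 pieces of 2.2 to 38.6 kb, with gaps of up to 4.6 kb, and 89.0% of its 129 kb was covered. The most divided domain was one of 128 kb on the same chromosome (22315001 to 22443400). It touched no protein-coding gene and lay over variable segments of the immunoglobulin lambda locus, which are rearranged in B cells. Its 13 pieces of 1.2 to 26.8 kb covered 78.7%, with gaps of up to 8.2 kb. The next, of 79.6 kb on chromosome 1 (11641401 to 11721000), held FBXO2, FBXO44 and FBXO6, which encode substrate adaptors of ubiquitin ligases, MAD2L2 and the axon guidance gene DRAXIN. It met 10 pieces of 1.8 to 13 kb that covered 71.6%. The domain over OSBPL5, an oxysterol-binding protein gene on chromosome 11 (3126001 to 3176000), met 7 pieces that covered 68.4% of 50 kb, and the one over TRIOBP, an actin-binding protein gene on chromosome 22 (37720401 to 37773600), met 7 that covered 74.4% of 53.2 kb.

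The neighbouring domains of the immunoglobulin lambda region showed that the division was not uniform along it. The 102.6 kb domain (22118201 to 22220800) met 6 pieces that covered 90.3%, and the 64 kb domain (22050801 to 22114800) met 3 that covered 95.9%. The 26.8 kb domain over VPREB1, a surrogate light chain gene of B cell precursors (22224201 to 22251000), met a single knockdown peak that covered 99.3%. Farther along the same locus a domain of 24.6 kb (22570801 to 22595400) lay over other lambda variable segments and no protein-coding gene. It was covered to 32.5%, with a gap of 14.6 kb. Still farther along the chromosome, the domain over RSPH14 and GNAZ, a G protein subunit gene (23079401 to 23102800), met no knockdown peak.

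The least covered domains were short and had low scores. The score is the authors' deposited value per peak, with a ceiling of 1000 and no stated unit. The 10 least covered domains measured 20.2 to 24.6 kb and scored 50.7 to 201, while 633 of the 922 domains (68.7%) were at the ceiling. Besides the RSPH14 and GNAZ domain, the domain inside CDH4, a cadherin gene of chromosome 20 (61411601 to 61432400, 20.8 kb), met no knockdown peak. The domain in VWA5B1 on chromosome 1 (20346601 to 20369600) was covered to 33.0%, and the one over PAF1 and MED29, a Mediator subunit gene, on chromosome 19 (39372201 to 39392400) to 35.6%. KCNQ1, an imprinted potassium channel gene, touched 5 wide domains. One of 24 kb (chr11:2504801-2528800) was covered to 38.3%, those of 49.6, 59 and 23.4 kb to 81.9, 80 and 96.6%. The domain of 149 kb (chr11:2786201-2934800), which also holds CDKN1C and PHLDA2, was covered to 93.9% in 7 pieces. None of the 27 domains covered to under 50% was at the ceiling. Domains at the ceiling had a median covered share of 92.2% and the 289 others 74.2%. Among domains of 20 to under 30 kb the medians were 91.7 and 75.8%, so the contrast was there at similar width too.

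**Figure D2:**
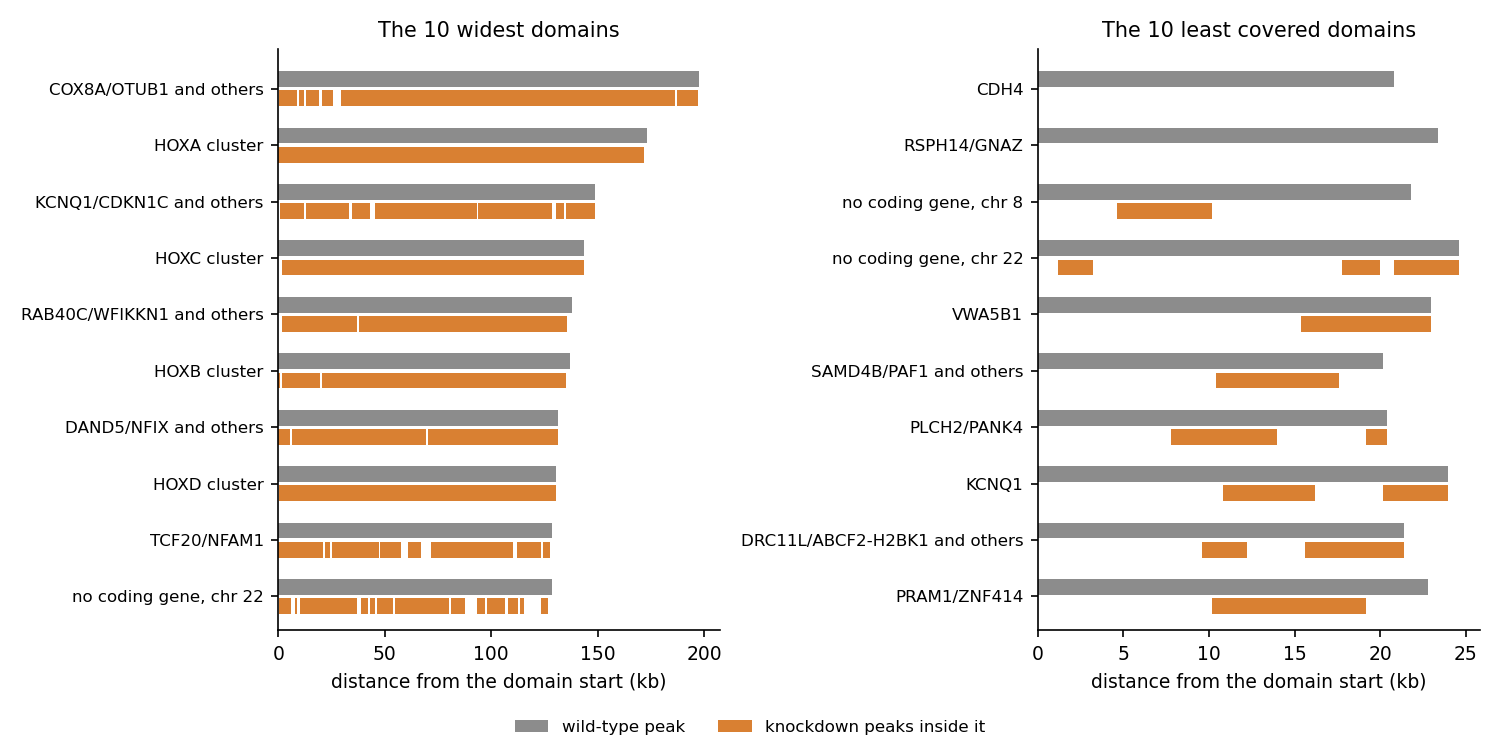
Each pair of bars shows a wild-type domain (grey) and the parts of knockdown peaks inside it (orange), by distance in kb from the start of the domain, for the 10 widest domains (left) and the 10 least covered (right); labels give touched protein-coding genes. The HOXA, HOXC and HOXD domains met unbroken knockdown peaks, the domain of immunoglobulin lambda segments met 13 pieces, and the CDH4 and RSPH14/GNAZ domains met none.

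Protein-coding genes were touched by 846 of the domains. A domain touched 1 such gene in 375 cases, 2 in 237 and 3 or more in 234, and 76 domains touched none. In all, 1728 of 19126 protein-coding genes (9.03%) were touched. A start position was listed for 15101 genes, and 990 of these starts (6.56%) lay in a wide domain. The listing is not complete, so the counts of genes below are by touch, meaning at least 1 bp in common with the gene.

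Genes of developmental transcription factors were touched more often than protein-coding genes as a whole. All 39 HOX genes lay wholly inside wide domains, in 5 domains in all, against 4.70% of all protein-coding genes. Of the 85 neural factor genes 63 (74.1%) were touched, against 9.03% of all protein-coding genes, of the 56 mesoderm factor genes 31 (55.4%) and of the 29 endoderm factor genes 17 (58.6%). Together, 150 of the 209 genes on these lists were touched, by 116 of the 922 domains (12.6%). The neural genes in the widest domains were EN2, a midbrain homeobox gene, in 81.2 kb, and ZIC1 and ZIC4, zinc finger genes of the dorsal neural tube, in 75.6 kb. Knockdown peaks covered 95.6% of the EN2 domain in 4 pieces and 98.7% of the ZIC1 and ZIC4 domain in 1. The mesoderm genes in the widest domains were HAND2, a heart and limb factor, in 54 kb, covered to 94.8%, and GATA4, a cardiac factor, in 52 kb, covered to 98.5%. For the endoderm list they were NKX2-6, in 44.8 kb, covered to 97.8%, and SOX18, which also acts in blood vessels, in 42.2 kb, covered to 95.3%. Among the list members that no wide domain touched were NEUROD1, MYOD1, TBXT, HNF4A and HHEX.

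Domains with a developmental transcription factor gene were divided less often than those with other genes. Several knockdown peaks met 40 of the 116 (34.5%, interval 25.9 to 43.9%), and 528 of the 730 domains that touched other protein-coding genes (72.3%, interval 68.9 to 75.5%). At least 90% was covered in 80 of the 116 (69.0%, interval 59.7 to 77.2%) and in 303 of the 730 (41.5%, interval 37.9 to 45.2%). Of the 76 domains without a protein-coding gene, 52 (68.4%) met several knockdown peaks and 33 (43.4%) were covered to at least 90%. The score moved with these groups: 95.7% of the first, 66.4% of the second and 48.7% of the third were at the ceiling. Among domains of 20 to under 30 kb at the ceiling, 10 of 51 with a developmental factor gene and 115 of 223 with other genes met several knockdown peaks. Over all 116 and all 730 domains, at any width and score, the shares met by several peaks changed with the knockdown peaks used. They were 4.31 and 18.6% with knockdown peaks up to 3 kb apart joined. With the upper 50% of knockdown peaks by score they were 19.8 and 62.9%. The shares covered to at least 90% were 75.9 and 62.3% with peaks joined. They were 62.9 and 36.8% with the upper 50% by score. The part of the score in the difference was not tested, since the ceiling hides the order above it.

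The covered share varied within the group. It was 100% at the domains of ALX4, FOXC1, FOXF1, TBX2, FOXL2, ONECUT1, SIM1, POU3F2, NEUROG1 and LHX1, each met by a single knockdown peak. At NEUROG1, a factor of sensory neuron development, the wild-type domain measured 26.4 kb and the knockdown peak 42 kb. At FOXC1, a mesoderm and eye factor, they measured 31.6 and 37.8 kb. The SOX10 domain (chr22:37979201-38001200, 22 kb), which also touches the RNA polymerase gene POLR2F, was the one of the 116 covered to under 50%, at 48.2% in 3 pieces. SOX10 is a neural crest factor. GBX1, a homeobox gene of the nervous system, was next with 70.5%, followed by PHOX2A, a factor of autonomic neurons, with 71.6%, and TBX6, a factor of the paraxial mesoderm, with 71.8%. NR2E1, a nuclear receptor gene of neural stem cells, lay in 41 kb covered to 73.7%. PDX1, a pancreatic factor, lay in 26.4 kb covered to 79.5% by 1 peak of 21 kb.

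**Figure D3:**
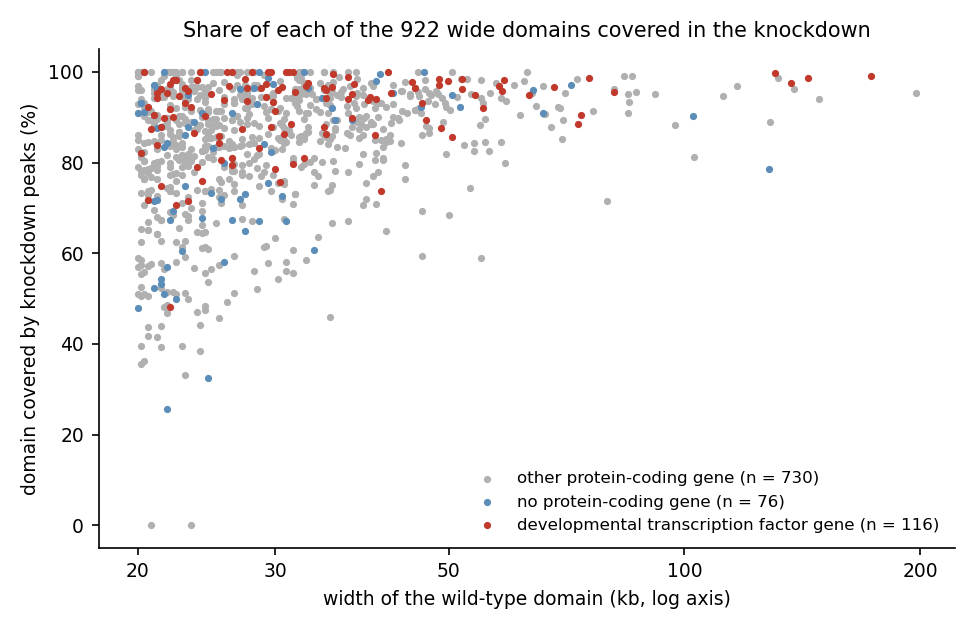
Share of each wide domain covered by knockdown peaks, in percent, against its wild-type width in kb on a log axis; each point is 1 of the 922 domains, coloured by whether it touches a developmental transcription factor gene, another protein-coding gene or none. All points under 50% but 1 lie under 30 kb, and 1 of the 116 domains with a developmental factor gene lies under 50%.

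Of 69 morphogen and growth factor genes 13 (18.8%) were touched, against 9.03% of all protein-coding genes. The WNT ligand genes WNT6 and WNT10A shared a domain of 50.4 kb covered to 100% by 1 knockdown peak, and WNT1 and WNT10B one of 49.2 kb covered to 89.0% in 3 pieces. SHH, the hedgehog ligand gene, lay in 22 kb covered to 100%, and BMP4, a BMP ligand gene, in 24.4 kb covered to 95.9%. In the forkhead family 18 of 48 genes were touched, in the SOX family 6 of 18 and in the T-box family 9 of 16. TBX1 on chromosome 22 lay in 50.4 kb covered to 85.7% in 5 pieces, and TBX3 in 48.6 kb covered to 97.1% in 2.

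Genes of the Polycomb machinery were themselves among the genes in wide domains. Of 34 PRC1 and H2A deubiquitinase genes 11 (32.4%) were touched, against 9.03% of all genes, and of the 12 PRC2 genes none. FBRSL1, of the AUTS2 family, touched neighbouring domains of 85.6 and 63.8 kb, covered to 99.1% in 2 pieces and 95.3% in 3, and AUTS2 itself in 33.2 kb covered to 100%. BMI1, which encodes the PCGF4 subunit, lay in 35 kb covered to 90.9%. RING1 lay in a domain at the threshold, of 20 kb, covered to 97.0% by a knockdown peak of 29.6 kb, and RNF2 was not touched. Of 21 m6A genes only YTHDF1 was touched. Its domain (chr20:63210601-63250800, 40.2 kb), which it shares with BIRC7 and NKAIN4, was covered to 85.1% in 2 pieces. A peak does not show whether the gene was transcribed.

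Among the pluripotency genes 4 of 34 (11.8%) were touched, a share near the 9.03% of all genes. They were TBX3, ZIC2, OTX2 and LEFTY1, and no wide domain touched POU5F1, SOX2, NANOG, LIN28A, DPPA4 or PODXL. ZIC2 lay in 40.4 kb covered to 94.1%, and OTX2, an anterior brain factor, in 32.2 kb covered to 93.8%. Of 32 imprinted genes 7 were touched, of which KCNQ1, CDKN1C, PHLDA2 and SLC67A1 shared the domain of 149 kb on chromosome 11. IGF2, a fetal growth factor gene, lay in 20.8 kb covered to 100%. Of 93 potassium channel genes 13 (14.0%) were touched, against 9.03% of all genes. Of their 18 domains 15 (83.3%) met several knockdown peaks. That compares with 67.2% of all wide domains and 72.3% of those with protein-coding genes other than developmental factor genes. KCNQ1 alone touched several of the 18.

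Other lists varied around the 9.03% of all genes. Of 15 cell cycle inhibitor genes 4 were touched, and of 33 WNT, FZD and SFRP genes 8. Of 69 ribosomal protein genes 11 (15.9%) were touched, among them RPS15 in 66 kb covered to 97.0% and RPS2 in 45.4 kb covered to 91.6%. Of their 12 domains 10 (83.3%) met several knockdown peaks, against 67.2% of all wide domains. The share was 72.3% for domains with protein-coding genes other than developmental factor genes. The 19 clustered protocadherin genes that were touched, of 53, all shared 1 domain of 23.8 kb on chromosome 5 covered to 73.9%. They therefore count as 1 region. Of 467 ZNF genes 21 were touched, of 333 solute carrier genes 25, of 80 histone genes 3, of 42 collagen genes 2, of 389 olfactory receptor genes 1 and of 38 housekeeping genes 1, HSP90AB1. No keratin gene of 55 was touched.

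**Figure D4:**
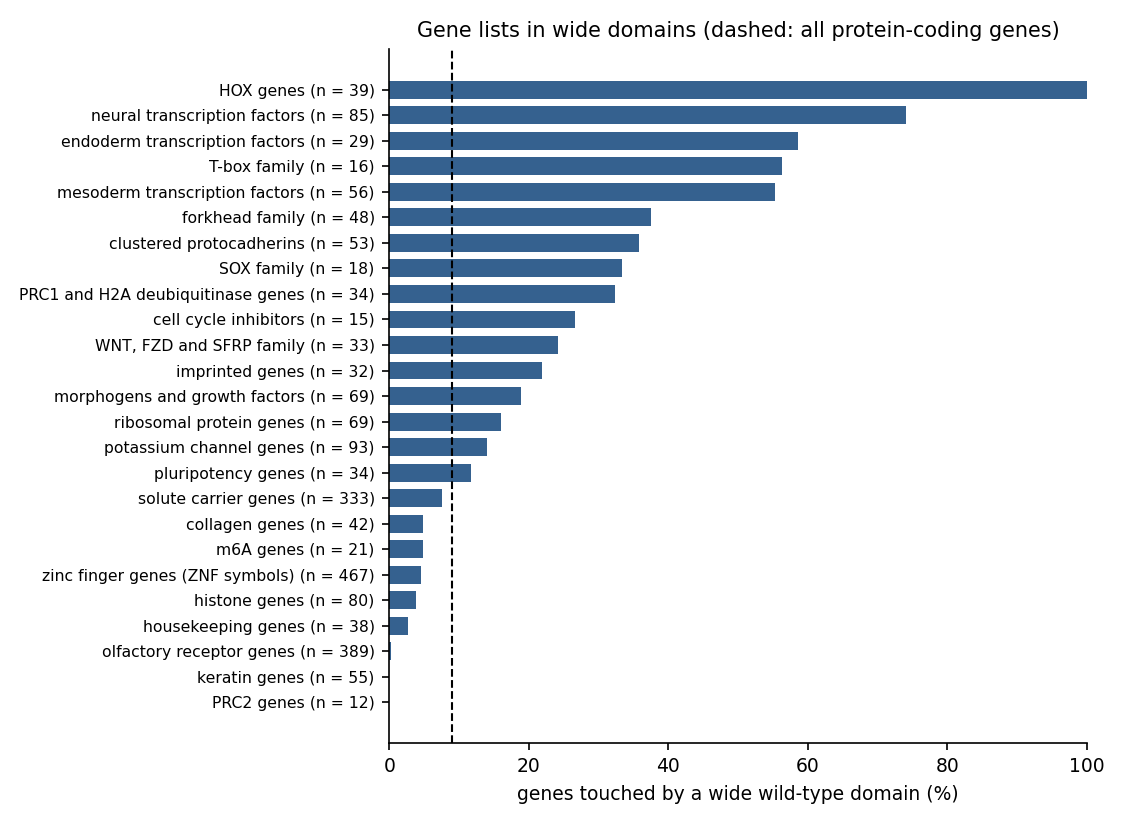
Percentage of the genes of each list that share at least 1 bp with a wide wild-type domain, with the number of genes placed on chromosomes 1 to 22 in brackets; the dashed line is the 9.03% of all protein-coding genes. The HOX genes reach 100% and the neural factors 74.1%, while the PRC2 and keratin genes are at 0.

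MicroRNA genes lay in the domains as well. Of 1461 hairpins with a listed sequence 110 (7.53%) were touched, against 9.03% of all protein-coding genes. Of the 110, 100 (90.9%) shared sequence with a knockdown peak, where 86.5% of the length of the wide domains was covered. The mature sequences below, with the seed (bases 2 to 8) in capitals, were chosen after the values were seen, because they belong to the HOX clusters or lie in domains without a protein-coding gene. The sequences are from RefSeq for GRCh38.p14.
hsa-miR-196a-5p: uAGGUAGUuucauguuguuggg
hsa-miR-196b-5p: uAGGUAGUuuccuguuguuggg
hsa-miR-10a-5p: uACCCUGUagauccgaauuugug
hsa-miR-9-5p: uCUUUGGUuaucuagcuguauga

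The first 2 share the seed AGGUAGU. They come from MIR196A1, MIR196A2 and MIR196B, which lie in the HOXB, HOXC and HOXA domains. MIR10A lies in the HOXB domain and MIR10B in the HOXD domain, and all 5 hairpins lay in knockdown peaks. The miR-9 sequence, with the seed CUUUGGU, is that of a neuronal microRNA made from 3 hairpins on different chromosomes. Each of these lay in a wide domain that touched no protein-coding gene and met a single knockdown peak. The MIR9-3 domain (chr15:89351201-89422800) measured 71.6 kb and was covered to 97.2%. The MIR9-2 domain (chr5:88657801-88698200) measured 40.4 kb and was covered to 98.0%, and the MIR9-1 domain (chr1:156417001-156446400) measured 29.4 kb and was covered to 98.6%. Among the 10 listed hairpins outside knockdown peaks were MIR338, MIR3065 and MIR657, which lie together in a domain of 22.2 kb on chromosome 17 covered to 68.5%.

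Sequence near gene starts was covered more than the rest of the domains. Of the 990 listed starts in wide domains 972 lay in a knockdown peak (98.2%, interval 97.1 to 98.9%), against 89.9% of the 9668 starts in any wild-type peak and 88.9% (interval 88.3 to 89.6%) of those in peaks under 20 kb. Within 1 kb of a listed start 98.1% of the domain length was covered, at 1 to 2 kb 96.1%, at 2 to 5 kb 88.6%, at 5 to 10 kb 84.9% and at 20 kb or more 84.2%. Peaks under 20 kb had 87.8% within 1 kb and 48.3% at 20 kb or more. For peaks of 10 to under 20 kb these values were 95.7 and 68.5%, so the decrease with distance was there in narrower peaks too. Starts missing from the listing make the distances upper limits, and chromosome 8, with no listed start, was left out here. Sequence inside protein-coding genes was covered to 85.5% and sequence outside them to 88.0%.

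The 18 starts in wide domains that lay outside knockdown peaks were 0.033 to 1.58 kb from one. The farthest was MED29, followed by PAF1 (1.31 kb), TOP3B, a DNA topoisomerase gene (1.19 kb), and TP53AIP1, a p53 target gene (1.07 kb). None was in a list of developmental factors. Such factors had 95 listed starts in wide domains, all of them in knockdown peaks. That is near the 98.2% of all 990 listed starts in wide domains. The CG dinucleotide, which reads the same on both strands, was counted in the 300 bases from 250 before to 50 after each start. The median was 27 per promoter for starts in wide domains, 28 for starts in wild-type peaks under 20 kb, 7 for starts in no wild-type peak and 22 for all. At least 1 was present in 98.1% of all promoters, and 15 or more in 77.5% of those in wide domains and 66.0% of all. For the 18 starts outside knockdown peaks the median was 20.5.

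**Figure D5:**
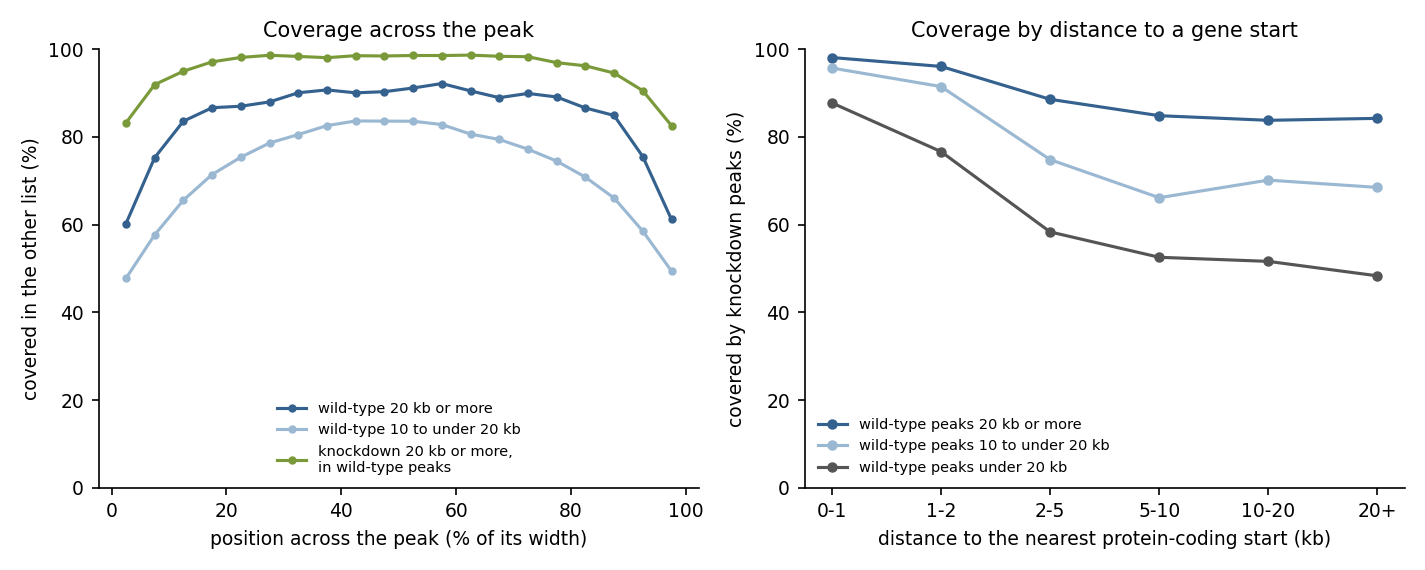
Left, mean percentage covered by peaks of the other list in 20 bins across the width of the peak, for the wide domains, for wild-type peaks of 10 to under 20 kb and for knockdown peaks of 20 kb or more. Right, percentage of wild-type peak length covered by knockdown peaks in 6 classes of distance in kb to the nearest listed protein-coding start. Coverage of the wide domains is lowest in the outermost bins (60.2 and 61.2%) and falls from 98.1% within 1 kb of a start to 84.2% at 20 kb or more.

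The domains were spread unevenly over the chromosomes. Chromosome 19 held 113, chromosome 17 held 90, chromosome 1 held 87, chromosome 11 held 70 and chromosome 22 held 55. Wide domains made up from 5.0% of the peaks of chromosome 19 down to 1.05% of those of chromosome 13, and 22.6% of the peak length of chromosome 22 against 5.67% on chromosome 18. The median covered share ran from 77.3% for the 7 domains of chromosome 21 to 94.3% for the 33 of chromosome 10. It was 85.7% on chromosomes 19 and 22. On chromosome 22 the peaks under 20 kb were covered to a median of 43.8%, the lowest of any chromosome, while its wide domains had the same median as those of chromosome 19. Domains covered to under 50% were most numerous on chromosome 19, with 6, chromosome 11, with 5, and chromosomes 1 and 22, with 4 each.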

How the data were processed

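The H2AK119ub peak lists of wild-type and YTHDF1 knockdown H1 cells were analysed, and the input libraries were not analysed here. Per the submitters' processing notes, the tools were SICER 1.1, MACS2 2.1.0, Bowtie2 2.2.5, Trimmomatic 0.35, Picard and SAMtools 1.3.1, with the build hg38. The peak caller and any use of the input are not stated in these sources. The score per peak is the authors' deposited value, used only within its own list. All peak widths were multiples of 200 bp, and ends were read as inclusive. Genes and starts came from RefSeq tables of GRCh38.p14, which shares coordinates with hg38. Of 19126 protein-coding genes, 15101 had a listed start. Shares and pieces were computed in Python 3.11.15 with numpy 2.4.6, pandas 2.3.3 and scipy 1.17.1, and the overlap code was tested on simulated data. Named domains are the 10 widest, the 10 least covered, the 10 with most pieces and the 10 widest covered to 99% by 1 peak, plus the 2 genes of each list in the widest domains, YTHDF1, RING1 and RNF2; other genes were named after their values were seen. The domains and 25 gene lists were chosen with earlier results of these data known. Alternatives changed the width threshold, the knockdown peaks used, the domain edges, the chromosomes, the covered share and the rule for genes. A few results are not reported here.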

Additional observations from a re-analysis of the deposited data

How the results depend on the processing

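No paired analysis was possible because each group had 1 H2AK119ub library and no replicate numbers. For the same reason no library could be left out. Of 52 values under 12 alternatives, 17 stayed within the interval of the reported value (for the number of domains, within 1.5 times). With a threshold of 15 kb there were 1693 domains, of which 38.0% were covered to at least 90% and 5.43% to under 50%, with a median of 85.8%, and 9.73% of listed starts lay in them. With 30 kb there were 374 domains, with 57.2%, 0.267% and a median of 91.6%; 75.1% met several knockdown peaks, 3.50% of listed starts lay in them, and 99.1% of those lay in a knockdown peak. With 50 kb there were 86 domains, with 74.4%, 0% and a median of 94.6%; 83.7% met several knockdown peaks and 1.15% of listed starts lay in them. With the upper 50% of knockdown peaks by score, 40.1% were covered to at least 90%, 7.92% to under 50%, the median was 86.5%, 56.8% met several peaks and 96.9% of starts lay in one. With knockdown peaks up to 3 kb apart joined, these values were 63.6%, 1.74%, 94.6%, 16.8% and 99.3%. With 1 kb trimmed from each edge, 53.1% were covered to at least 90% and the median was 91.1%. With 80 or 95% as the limit of the covered share, 73.3 or 25.5% of domains passed. Without chromosomes 19 and 22, 5.74% of listed starts lay in wide domains. Counting genes wholly inside gave 4.70% and genes touched 9.03%. The depth of both libraries is unknown, so a gap can be sequence just under the calling threshold.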

Other observations

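Some wide domains lay over clusters of small RNA genes. The domain of 34.4 kb on chromosome 7 (129766001 to 129800400) holds MIR182, MIR96 and MIR183, the microRNA cluster of sensory hair cells, and was covered to 94.2% in 3 pieces. A domain of 42.4 kb on chromosome 6 (28755001 to 28797400) lay over transfer RNA genes for alanine and phenylalanine and was covered to 95.3% in 3 pieces, and its neighbour of 28.4 kb (28801401 to 28829800) to 93.0% in 1. Domains near the HOXC cluster on chromosome 12 held long noncoding RNA genes: the domain of 29.6 kb (54065801 to 54095400), with FLJ12825, was covered to 82.4% in 3 pieces, and the one of 32.6 kb (54189601 to 54222200) to 100% in 1.

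Chromosome X, which the domains above leave out, held 5 wild-type and 4 knockdown peaks of 20 kb or more. The covered share of the wild-type ones ran from 68.2 to 99.4%, with a median of 95.3%.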
